A study of Mus musculus with 3 samples.

Results

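The immunity-related GTPases (IRGs) are a family of interferon-inducible GTP-binding proteins of the mouse, and 8 of their genes were described here: Irgm1, Irgm2, Igtp, Iigp1, Tgtp1, Tgtp2, Gm4951 and Gm12250. The genes were chosen by symbol, and all 8 were found among the 55536 mouse genes quantified. The samples were bone-marrow-derived macrophages, phagocytes grown from marrow, of the inbred mouse strain C57BL/6J, all exposed to 100 ng/mL lipid A for 180 min. Polyadenylated RNA from 1 group of 3 biological replicates was sequenced. The labels name the stimulus lipid A, the lipid anchor of lipopolysaccharide from bacterial membranes, in the description, and lipoprotein A in the source name and the treatment field. An unstimulated group was not analysed here, so every value is a level after exposure and none is a response to it. The labels give the 3 libraries a common donor identifier, so the spread below is that between these libraries and may be partly technical. The p-values rest on the same libraries and carry the same limit.

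IRG proteins defend the cell against microbes that live inside vacuoles, such as Toxoplasma gondii. As background from textbook knowledge, the family falls into the GKS type, named for the residues of its nucleotide-binding loop, whose members coat and disrupt the vacuole, and the GMS type, whose members sit on the cell's own membranes and keep the GKS proteins inactive there. Irgm1, Irgm2 and Igtp (also called Irgm3) are of the GMS type. Iigp1 (Irga6), Tgtp1 and Tgtp2 (Irgb6), Gm12250 (Irgb10) and Gm4951 (Ifgga2) are of the GKS type. Transcription of IRG genes is known to follow interferon, through transcription factors that bind interferon-stimulated response elements (ISRE) and gamma-activated sites (GAS).

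The stretches upstream of the transcription starts are shown because each holds letters matching the interferon element through which the family is known to be transcribed. RefSeq promoters of the GRCm38.p6 build, each 250 bases before to 50 bases after the start, were matched for 6 of the 8 members. Bases 100 to 13 before the start are printed 5′ to 3′ along the gene's strand, and the capitals mark the ISRE letters, searched on both strands as GAAA, any 2 bases and GAAA.
Irgm1: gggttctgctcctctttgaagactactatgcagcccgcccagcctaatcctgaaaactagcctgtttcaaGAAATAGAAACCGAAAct
Tgtp1: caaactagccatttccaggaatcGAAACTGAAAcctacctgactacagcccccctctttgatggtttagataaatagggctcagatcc
Tgtp2: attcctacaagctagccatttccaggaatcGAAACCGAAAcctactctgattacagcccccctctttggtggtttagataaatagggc
Gm12250: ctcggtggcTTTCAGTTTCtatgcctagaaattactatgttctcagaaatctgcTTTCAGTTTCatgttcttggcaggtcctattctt
Igtp: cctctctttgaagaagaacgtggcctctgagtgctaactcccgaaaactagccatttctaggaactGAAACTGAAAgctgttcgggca
Irgm2: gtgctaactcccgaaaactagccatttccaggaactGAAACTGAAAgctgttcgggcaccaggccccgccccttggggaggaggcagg
These lie at chr11:48871433-48871520 (minus strand) for Irgm1, chr11:48992259-48992346 (minus) for Tgtp1, chr11:49064225-49064312 (minus) for Tgtp2, chr11:58183743-58183830 (plus) for Gm12250, chr11:58199456-58199543 (plus) for Igtp and chr11:58214877-58214964 (plus) for Irgm2.

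The ISRE letters were found in the promoters of 6 of 6 members, against 1131 of 32851 promoters of all genes (3.443%). They began 30 and 24 bases before the start of Irgm1, where the matches overlap, 77 bases before Tgtp1, 70 before Tgtp2, 34 before Igtp and 64 before Irgm2. In Gm12250 they began 91 and 46 bases before the start, on the opposite strand. The GAS letters, TTC, any 3 bases and GAA on either strand, were found in 5 of 6 members, against 8.298% of all promoters, and Irgm1 was the member without them. Both elements stood in the promoters of 5 members and of 0.4536% of all genes' promoters. Among the guanylate-binding proteins, another interferon-inducible GTPase family that acts at the same vacuoles, 5 of 6 promoters held the ISRE letters and 2 of 6 the GAS letters. A match is a description of letters in the window and not a bound site. The start that RefSeq gives Gm12250 lies upstream of the GENCODE model whose reads were counted.

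Transcripts of all 8 members were present at 1 TPM or more in all replicates (TPM is a length-scaled share of all transcripts in a library), the detection rule used here. Across all mouse genes 18.1% met that rule, and across protein-coding genes 42.6%. Of the 8 members, 6 reached 100 TPM in each of the 3 libraries, against 11.4% of the detected genes. The whole family summed to 3741, 3567 and 3120 TPM in replicates 1, 2 and 3, or 3476 ± 321 TPM (SD, n = 3), which was 0.348 ± 0.0321% of the TPM of all mouse genes. The median member lay at 415 ± 68.2 TPM, while the median detected gene lay at 14.6 ± 0.535 TPM. On the log2(TPM + 0.1) scale the median member was 4.80 ± 0.23 above the median detected gene, a 27.8-fold difference, and was above it in 3 of 3 replicates. The exact permutation test (two-sided, flipping the sign of each replicate) gave p = 0.25, the smallest value that 3 replicates allow. In these bulk samples, fewer expressing cells and less RNA per cell cannot be told apart.

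**Figure D1:**
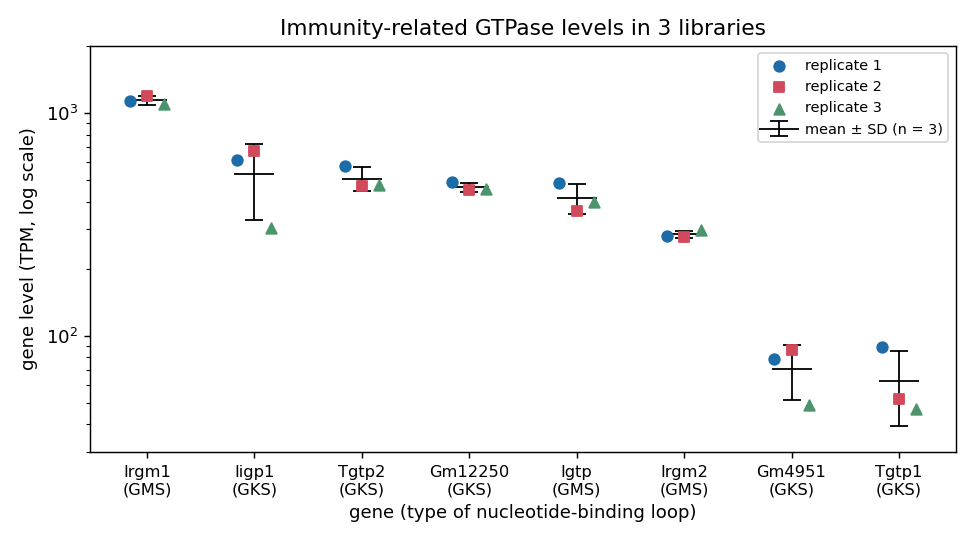
Gene level in TPM (log axis) of each member in replicates 1, 2 and 3, in order of the mean, with the mean and SD of the 3 libraries as black bars. Irgm1 stands above all other members in every library, and Gm4951 and Tgtp1 stand below all others.

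Irgm1, a GMS regulator found on Golgi membranes and lysosomes, was the most abundant member. It had 1129, 1196 and 1095 TPM in replicates 1, 2 and 3, or 1140 ± 51.5 TPM, which placed it at rank 122 of the 10026 detected genes. Irgm1 differed by 1.09-fold between its highest and lowest library. The authors' second quantification of the same reads gave it 778, 1085 and 859 TPM. Igtp, the GMS protein known from the endoplasmic reticulum, had 486, 361 and 400.07 TPM, or 416 ± 64.0 TPM. Irgm2, the GMS protein known from the Golgi apparatus, had 279, 279 and 297 TPM, or 285 ± 10.4 TPM. In every library the 3 GMS genes kept the order Irgm1, Igtp, Irgm2.

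Among the GKS genes, Iigp1, the best studied vacuole-coating member, had 613, 673 and 304 TPM, or 530 ± 198 TPM. Its level in replicate 3 lay below those of both other libraries by more than they differed from each other. Tgtp2 had 579, 471 and 473 TPM, or 507 ± 61.7 TPM, and was highest in replicate 1. Gm12250, whose protein is known to act with guanylate-binding proteins on the surface of cytosolic bacteria, had 489, 449 and 456 TPM, or 464 ± 21.2 TPM.

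The remaining GKS genes stood lower. Gm4951, the neighbour of Iigp1 on chromosome 18, had 78.5, 86.2 and 48.6 TPM, or 71.1 ± 19.9 TPM, and again replicate 3 was the low library. Tgtp1 had 89.1, 51.7 and 46.8 TPM, or 62.6 ± 23.1 TPM, with replicate 1 as the high library. Even these lowest members lay above most detected genes, at the 82.3 and 80.2 percentile.

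The order of the 8 mean levels was read against the spread of each neighbouring pair, and a pair was called separated where all 3 libraries had the same sign and the mean log2 ratio exceeded its SD. By that rule 5 of 7 pairs were separated. Irgm1 over Iigp1 was 1.19 ± 0.57 on the log2 scale, a 2.28-fold difference. Irgm2 over Gm4951 was the widest step at 2.04 ± 0.49, or 4.12-fold. Igtp over Irgm2 was 0.54 ± 0.23, Gm12250 over Igtp 0.17 ± 0.15 and Tgtp2 over Gm12250 0.12 ± 0.11. Iigp1 and Tgtp2 were not separated, at a log2 ratio of -0.01 ± 0.58, nor were Gm4951 and Tgtp1, at 0.20 ± 0.48. The same exact permutation test gave p = 0.25 for each separated pair, or p = 0.35 after Benjamini-Hochberg adjustment over the 7 pairs, and the design cannot reach 0.05. Steps between neighbours depended on length scaling: in counts scaled to library size alone, the log2 ratio was 1.38 for Tgtp2 over Gm12250, -0.62 for Gm12250 over Igtp and -0.36 for Igtp over Irgm2. In the second quantification Gm12250 over Igtp was 0.71 ± 0.20 and 4 of 7 pairs were separated. Tgtp2 over Gm12250 was 0.11 ± 0.16 there, smaller than its SD, and Iigp1 over Tgtp2 was -0.46 ± 0.52.

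Summed by type, the 3 GMS genes held 1894, 1836 and 1792 TPM in replicates 1, 2 and 3, or 1841 ± 50.9 TPM, and the 5 GKS genes held 1848, 1731 and 1328 TPM, or 1635 ± 273 TPM. The log2 ratio of GMS to GKS was 0.18 ± 0.22 (n = 3, exact sign-flip permutation p = 0.25), smaller than its SD, with single values of 0.04, 0.09 and 0.43. In the authors' second quantification of the same reads the mean ratio had the opposite sign, at -0.22 ± 0.19 (n = 3, exact sign-flip permutation p = 0.5). No direction between the types is therefore given.

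Each library was quantified in 2 ways by the authors, per the text files deposited beside the tables: the gene quantification came from an alignment to the transcriptome and the second from the reads and an index. The gene quantification gave 1140 TPM for Irgm1, 416 TPM for Igtp and 285 TPM for Irgm2, against 907, 330 and 226 TPM in the second. All 3 GMS genes were thus higher in the gene quantification, by mean log2 ratios of 0.34, 0.32 and 0.34, beside a median of 0.23 over the 10696 genes detected in either. Tgtp2 and Gm12250 lay on the other side in the mean, at 507 and 464 TPM in the gene quantification, against 588 and 544 TPM in the second. Their mean log2 ratios, -0.21 ± 0.23 and -0.22 ± 0.24, were smaller than their SD, and replicate 1 gave -0.01 and 0.03. Iigp1 had 530 TPM, against 456 in the second. Gm4951 had 71.1 TPM, against 71.6, and Tgtp1 had 62.6 TPM, against 52.5. A gap of 1.5-fold or more, the same way in all replicates, was found for 0 of 8 members and for 8.59% of the genes detected in either quantification. With the gene quantification lower these were 5.96% of genes, and with it higher 2.63%. These ratios come from the same reads, so they carry no test.

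**Figure D2:**
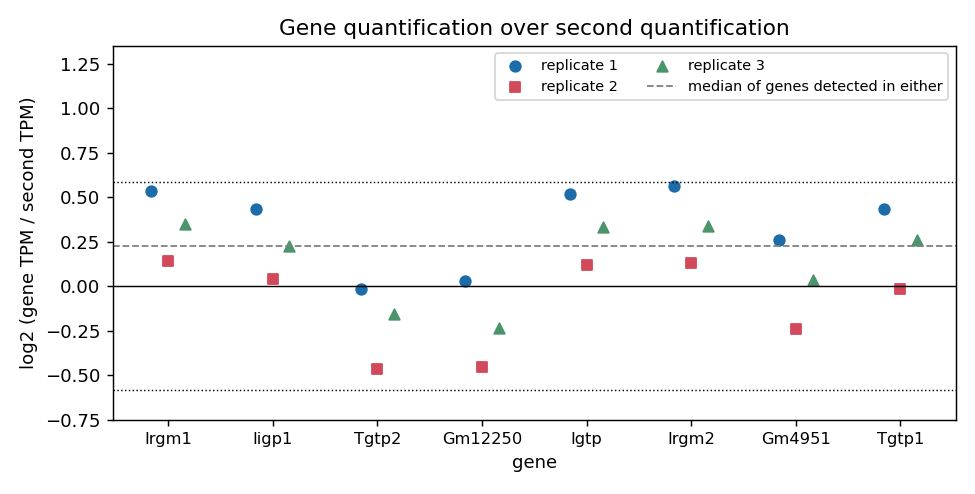
Log2 ratio of gene TPM to second-quantification TPM for each member in each library, with the median of all genes detected in either as a dashed line and 1.5-fold marked by dotted lines. Every point lies within the dotted lines, the GMS genes lie above 0 in all 3 libraries, and replicate 1 is the highest library for each member.

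Tgtp1 and Tgtp2 are near-identical copies on the minus strand of chromosome 11, and how the reads were split between them rests on few bases. The coding sequences of Tgtp2-201 and Tgtp1-201, each 1245 bases long, differ at 4 bases, an identity of 99.68%. Over the whole transcripts, 2810 and 2823 bases long, 19 alignment columns differ, 13 of them gaps. Of the 31-base windows in the transcripts of Tgtp2, 89.2% also occur in Tgtp1, and of those of Tgtp1, 83.2% occur in Tgtp2. Their promoter stretches printed above align over 96 columns with 76 matches and 16 gaps, an identity of 79.17% that counts gaps as differences. The ISRE letters begin 77 bases before the start of Tgtp1 and 70 before that of Tgtp2, so the stretches are offset from each other.

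The deposited levels placed nearly all of the pair's signal on Tgtp2. Tgtp2 over Tgtp1 was 3.07 ± 0.33 on the log2 scale, or 8.41-fold, higher in 3 of 3 replicates (exact sign-flip permutation p = 0.25, n = 3). In the second quantification it was 3.51 ± 0.32, or 11.4-fold. Tgtp1 held 10.8 ± 2.29% of the pair's TPM in the gene quantification, against 8.16 ± 1.74% in the second. Because the genes share most of their sequence, the split is uncertain. The sum does not rest on that split, but it too depended on the quantification. It was 668, 523 and 520 TPM in replicates 1, 2 and 3 in the gene quantification, against 650, 704 and 566 TPM in the second. The Tgtp2 level, and so the ratio and the sum, includes the short transcript Tgtp2-202, with a mean of 28.3 TPM in the gene quantification and 215 TPM in the second.

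Other members share less sequence with each other. Igtp shares 15.9% of its 31-base windows, all of them with Irgm2, and Irgm2 shares 9.16% of its own with Igtp. Gm4951 shares 10.4% with Iigp1, and 4.63% of the windows of Iigp1 occur in Gm4951. None of the 1244 windows of Gm12250 was found in another gene's transcripts. Aligned coding sequences were 86.07% identical between Iigp1 and Gm4951, 67.11% between Irgm2 and Igtp, 63.7% between Irgm1 and Irgm2 and 62.63% between Irgm1 and Igtp. Between a GMS and a GKS gene identity ran from 50.56% to 53.14%, with the whole transcript standing in for Gm12250, which has no annotated coding sequence in GENCODE M21.

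The annotation also sets what each value covers. In mm10 with GENCODE M21, Gm12250 is a processed pseudogene with a single exon of 1274 bases on chromosome 11 (58187739 to 58189012, plus strand), whereas RefSeq annotates a longer protein-coding gene. Its level is therefore that of the single exon alone. Igtp (58199556 to 58207591) and Irgm2 (58199618 to 58222782) follow on the same strand and overlap. Irgm1 (48861968 to 48871683), Tgtp1 (48985327 to 48994172) and Tgtp2 (49057194 to 49064206) lie on the minus strand of the same chromosome within 202 kb. Gm4951 (60212080 to 60247820) and Iigp1 (60376027 to 60392634) lie on the plus strand of chromosome 18. Tgtp1 and Tgtp2 both lie within the opposite-strand gene Olfr56, Tgtp1 overlaps Gm12185, and Gm4951 contains the pseudogene Gm5970. The sources used here do not say if strand was kept, so reads of such overlapping genes may not have been told apart.

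Most members drew on a single main transcript. Irgm1-202 made up 77.9%, 77.7% and 81.4% of Irgm1 TPM in replicates 1, 2 and 3, against 70.3%, 67.8% and 73.9% in the second quantification, and Irgm1-201 made up nearly all of the rest. Irgm2-202 averaged 79.9 ± 2.26% in the gene quantification and 77.0 ± 3.08% in the second. Its other named transcript, Irgm2-203, averaged 14.8 ± 0.921% and 20.1 ± 2.95%. Irgm2-201, which begins inside the first exon of Igtp, averaged 5.34 ± 1.37% and 2.87 ± 0.137%. Igtp-201 averaged 88.4 ± 3.42% and 92.4 ± 2.62%. These shares moved little between the libraries, and the main transcript of each gene was the same in both quantifications.

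Iigp1-202 fell in the same range, with 87.0%, 84.7% and 79.9% of Iigp1 TPM, against 81.5%, 76.6% and 70.4% in the second quantification. Iigp1-201 varied more, at 10.4%, 1.87% and 7.67%, against 14.9%, 16.9% and 18.2%. Tgtp1-201 averaged 97.2 ± 2.89% and 91.5 ± 4.81%. Gm12250 and Gm4951 have a single annotated transcript each.

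Tgtp2 was the member whose make-up depended most on the quantification. Tgtp2-201 held 99.4%, 95.2% and 87.6% of Tgtp2 TPM in the gene quantification, against 67.1%, 62.1% and 60.9% in the second. The rest lay on Tgtp2-202, a processed transcript of 370 bases, which had 3.23, 22.7 and 58.9 TPM in the gene quantification, against 192, 247 and 206 TPM in the second. In counts this transcript held 6.61, 55.3 and 257 expected counts, against 767, 985 and 1688 estimated counts. Tgtp2-201 held 23573.2, 26310.2 and 41379.5 expected counts, against 28201.2, 27076.2 and 42019.2 estimated counts. Tgtp2-202 was thus a small part of the gene's counts in both quantifications, and length scaling gives so short a transcript a larger share of TPM. For Tgtp2-201 alone the gene quantification was the higher, at 479 TPM, against 373 TPM in the second. The Tgtp2 total, which includes the short transcript, was higher in the second.

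**Figure D3:**
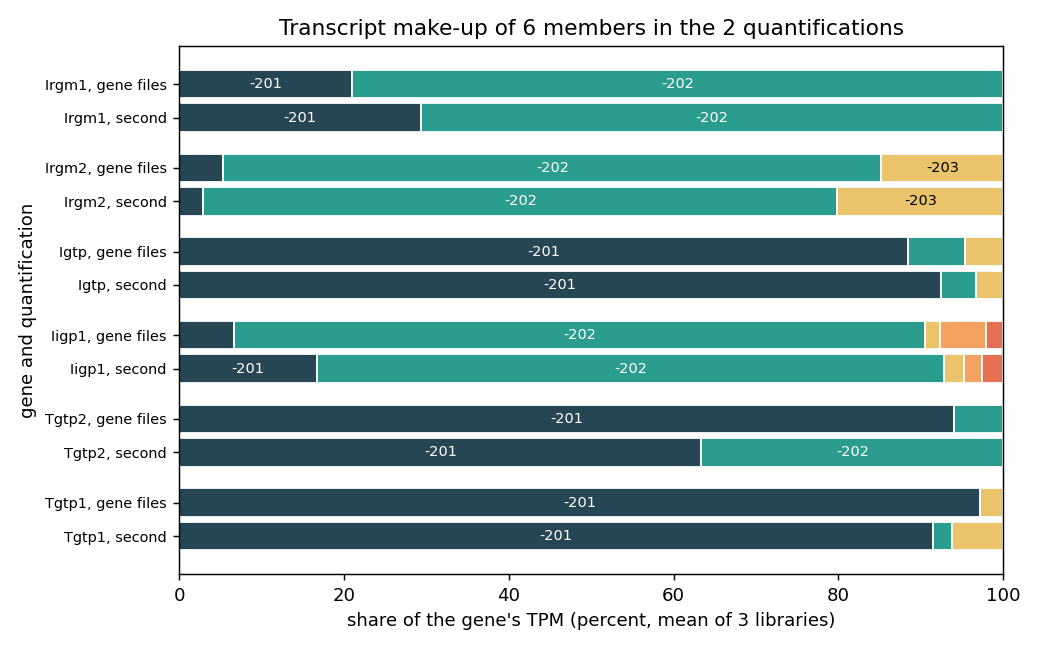
Share of each gene's TPM held by its transcripts (percent, mean of 3 libraries) for the 6 members with more than 1 transcript, with the gene quantification above the second quantification in each pair of bars. Colours separate transcripts within a gene, and shares of at least 7% carry the transcript's suffix. Tgtp2-202 averages 5.94% in the gene quantification and 36.6% in the second.

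The replicates did not move together across the family. Deviations were taken as log2 normalised counts of a library minus the mean of the other libraries. Replicate 1 was the highest library for 5 of 8 members, beside 31.6% of all 11611 genes tested, and the lowest for 0 of 8, beside 32.8%, with a median deviation of 0.35 over the members, beside 0.00 over all genes tested. Iigp1 deviated by 0.51, 0.52 and -1.04 in replicates 1, 2 and 3, and Gm4951 by 0.31, 0.39 and -0.70. Tgtp1 deviated by 0.90, -0.47 and -0.44, Tgtp2 by 0.44, -0.21 and -0.23, and Igtp by 0.38, -0.37 and -0.01. In these counts the chromosome 18 members were low in replicate 3, and the Tgtp genes were high in replicate 1. In the TPM of the second quantification, an alternative chosen after seeing the data, Iigp1 and Gm4951 were again lowest in replicate 3. Replicate 1 was the highest library there for 2 of 8 members, Igtp and Tgtp1, beside 16.5% of all detected genes. It was the lowest for 3 of 8, beside 53.0%. Replicate 2 was the highest there for 6 of 8 members, beside 66.9% of all detected genes, and Tgtp2 had 584, 652 and 527 TPM in replicates 1, 2 and 3. Irgm1 stayed within 0.04 of 0 in all libraries in the normalised counts, Irgm2 within 0.15 and Gm12250 within 0.18. By TPM of the second quantification, Irgm1 had 778, 1085 and 859 in replicates 1, 2 and 3. Irgm2 had 189, 254 and 235 TPM there, and Gm12250 had 479, 615 and 537 TPM.

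**Figure D4:**
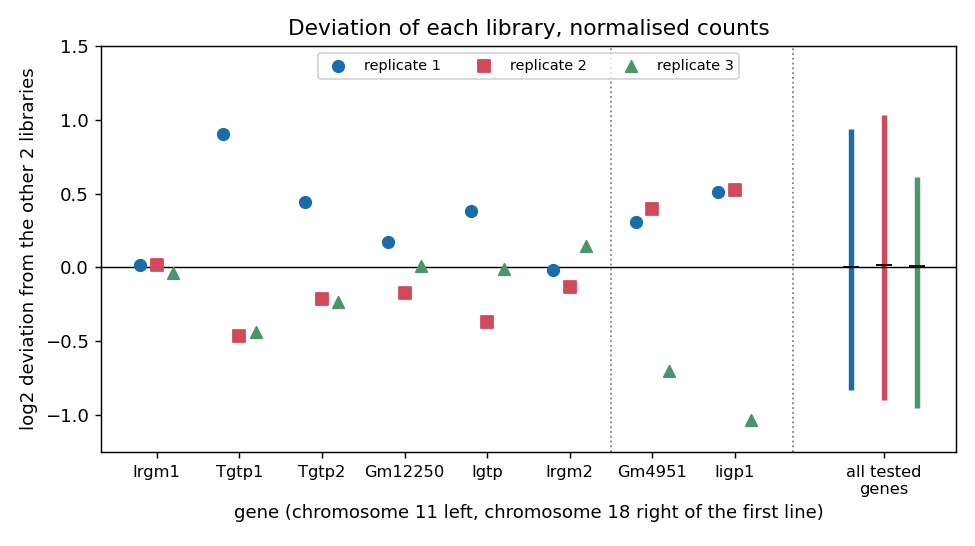
Log2 deviation of each library from the mean of the other libraries in normalised counts, for the 6 members on chromosome 11 and the 2 on chromosome 18, with the central 95% of all tested genes as vertical bars for replicates 1, 2 and 3 (black tick, median). Iigp1 at -1.04 in replicate 3 lies below the bar's end at -0.95, and every other point lies inside the bar of its library.

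Against counting error alone, 8 of 8 members had unequal rates between the libraries, beside 77.5% of all genes tested (chi-square test of equal rates, edgeR normalisation, Benjamini-Hochberg adjusted over all genes). Without replicate 3 the count was 5 of 8, beside 58.8% of all genes tested. Irgm1 had the smallest excess among the members, with an adjusted p of 4.33e-06 in this test. With the same normalisation it deviated by 0.02, 0.02 and -0.04 on the log2 scale in replicates 1, 2 and 3. Iigp1 deviated by 0.51, 0.52 and -1.04. In TPM, which is scaled differently and was not tested this way, Irgm1 differed by 1.09-fold between extremes. There Irgm2 had the narrowest range of the members at 1.06-fold and Iigp1 the widest at 2.22-fold. The biological coefficient of variation estimated with edgeR was 17.6% for Irgm1, 25.7% for Iigp1 and 24.6% for Tgtp1. Its median over the members was 19.4%, beside 21.3% over all genes tested. These estimates are drawn towards a trend over all genes, so they understate how far genes differ in spread. The plain SD of TPM over its mean was 4.52% for Irgm1, 37.4% for Iigp1 and 36.9% for Tgtp1.

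The members were set beside other GTPases of interferon-stimulated cells. Of 11 guanylate-binding protein genes, 10 were detected, with a list median of 161 ± 61.0 TPM, beside 415 ± 68.2 TPM for the IRG members. The difference between the families was not tested. Gbp5 stood at 1286 ± 67.1 TPM, Gbp2 at 931 ± 182 TPM and Gbp3 at 364 ± 78.6 TPM, while Gbp2b stood at 0.61, 0.41 and 0.22 TPM. The median deviation of the guanylate-binding list was 0.62, 0.01 and -0.86 in replicates 1, 2 and 3, beside 0.35, -0.15 and -0.13 for the IRG members. Of the Mx and GVIN large GTPases, 4 of 5 annotated genes were detected, led by the antiviral gene Mx1 at 1307 ± 342 TPM, Mx2 at 324 ± 106 TPM and Gm4070 at 201 ± 33.2 TPM, with Gm1966 lowest at 1.51 TPM.

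**Figure D5:**
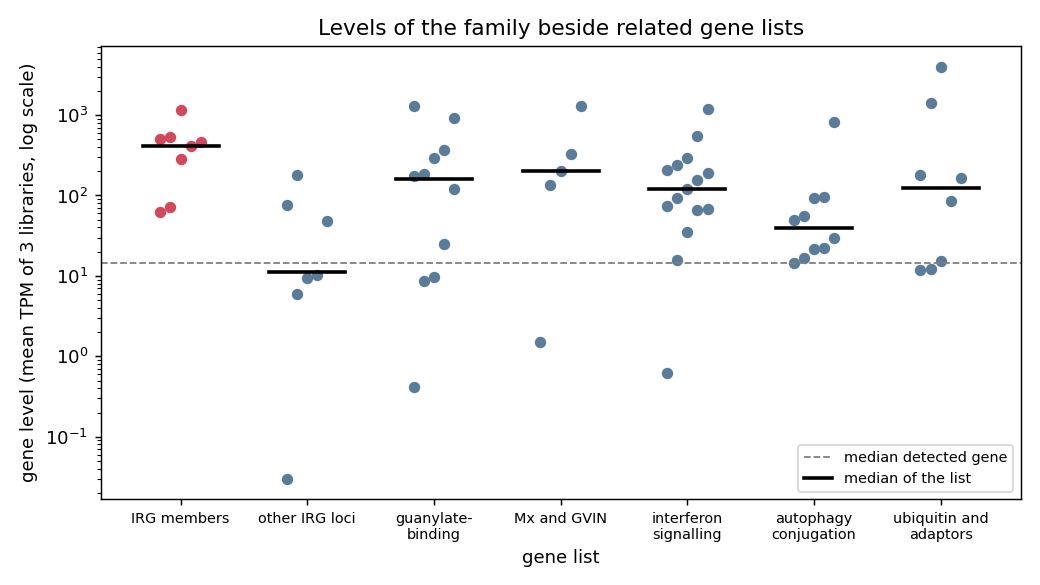
Mean TPM over 3 libraries (log axis) of every gene in the IRG family and in 6 related lists, with list medians as black bars and the median detected gene as a dashed line at 14.6 TPM. All 8 IRG members lie above the dashed line, and the other lists span wider ranges.

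Genes of the interferon pathway that leads to the family were present in 14 of 15 cases. Irf1, a transcription factor that binds ISRE, stood at 1182 ± 119 TPM and Irf8 at 551 ± 63.8 TPM. Ifnb1, the type I interferon that macrophages secrete after Toll-like receptor 4 signalling, had 9.34, 29.6 and 8.98 TPM. The undetected gene was Ifng, interferon gamma, with 0, 1.83 and 0.03 TPM. Both interferon transcripts were highest in replicate 2, where 43.9% of all detected genes had their highest TPM. Ifng rested on 12 counts over the 3 libraries.

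Autophagy conjugation proteins are known to be needed for IRG proteins to reach the vacuole, and all 10 of that list were detected. Gabarap stood at 828 ± 35.0 TPM, Gabarapl1 at 95.3 TPM and Map1lc3b at 93.0 TPM, with Atg12 lowest at 14.5 TPM. Ubiquitin-binding and adaptor factors that gather at IRG-coated vacuoles were detected in 8 of 8 cases. Lgals3, which binds exposed sugars of broken vacuoles, stood at 4015 ± 819 TPM, the autophagy receptor Sqstm1 at 1424 ± 269 TPM and the ubiquitin ligase Trim21 at 179 ± 15.1 TPM, with Calcoco1 lowest at 11.8 TPM.

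Of 7 further IRG loci outside the 8 members 6 were detected, with a list median of 11.2 ± 1.88 TPM, below that of the members, although single loci stood above Gm4951 and Tgtp1. Gm5431 had 177 ± 19.3 TPM, 9930111J21Rik2 77.0 ± 3.89 TPM and 9930111J21Rik1 47.9 ± 7.04 TPM, and all 3 lie between Irgm1 and Tgtp2 on chromosome 11. Irgc1, the family's testis gene, had 0, 0 and 0.09 TPM. Ifi47, an IRG gene (synonym Irgd) within 50 kb of Tgtp2 that belongs to neither list, had 829, 640 and 615 TPM, a mean of 694 TPM that only Irgm1 among the members exceeded.

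For each member, the protein-coding genes outside the family with the closest levels were found by the smallest of the largest absolute log2 difference over the 3 libraries. Irgm1 lay nearest to Cfl1, with a largest difference of 0.06, and to Ifi211, with 0.12. Tgtp2 lay nearest to Socs3 (0.08) and Rplp2 (0.09), and Irgm2 to Nfkb1 (0.06) and Nrp2 (0.07). Gm12250 lay nearest to Rpl15 (0.08) and Rpl4 (0.09), and Igtp to Ubl5 (0.12) and Rpl39 (0.13). Gm4951 lay nearest to Cacybp (0.11) and Wsb1 (0.12), and Tgtp1 to Hmgcs1 (0.12) and Lrpap1 (0.24). Iigp1 had the most distant neighbours, Ifi203 and Il27, at 0.36 each. These are likenesses in level over 3 libraries and nothing more.

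The sum of expected counts assigned to mouse genes was 24450338 in replicate 1, 34641026 in replicate 2 and 60595742 in replicate 3. The cells carried the markers of their label, with 8 of 8 macrophage markers detected at a list median of 636 TPM. Neutrophil markers were detected in 3 of 9 cases and summed to 83.3, 714 and 48.4 TPM, high in replicate 2, with Ly6g at 0 in all libraries. Of the dendritic, T, B and natural killer cell lists 1 gene each was detected, and of the stromal list 0 of 5. Their sums ran from 3.12 to 6.43 TPM for dendritic cells, from 25.1 to 46.5 TPM for T cells, where Lck was the gene detected, and from 1.43 to 2.71 TPM for B cells. They ran from 8.4 to 22.9 TPM for natural killer cells, with Prf1 at 0, and from 0.17 to 6.84 TPM for stromal cells. Without replicate 2 the family sum averaged 3430 TPM, against 3476 TPM with all 3 libraries, in the gene quantification. In the second quantification the family sums were 2955, 3747 and 2821 TPM in replicates 1, 2 and 3. Replicate 2 was the highest there, as it was for 66.9% of all detected genes.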

How the data were processed

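Per the text files deposited beside the tables, the authors quantified genes and transcripts against mm10 with GENCODE M21. The sources used here name no aligner, quantifier or strand setting. The deposited gene tables hold, per the file headers, expected counts, TPM and FPKM, the transcript tables add the percent of each gene held by a transcript, and the tables of the second quantification give estimated counts and TPM for each transcript, which were summed here by gene. Replicates were not pooled.

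TPM was used as deposited, on a log2 scale after adding 0.1, which understates ratios of low genes. Alternatives were FPKM, the second quantification, other library scalings, pseudocounts and filters, counts without length scaling and leaving out each replicate. Counts were rounded and scaled with edgeR 4.0.16 (R 4.3.3): low genes were filtered with its default rule, rates were compared by a chi-square test, and adjustment was over 11611 genes. Both steps were tested on simulated data. The 97 entries of other sequences held at most 0.117% of counts and were left out, as were 26248 entries with numeric identifiers. With 3 replicates an exact sign-flip test cannot go below p = 0.25. Depth sets counting error only, since amplified copies of a fragment could not be told from separate molecules.

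The members and lists were chosen with earlier results of these data known. Named were all members, the 3 highest and the lowest gene of each list outside the cell type markers, genes at 0, transcripts at 10% or more of a gene, and the 2 nearest genes to each member; 1 gene that this rule names is not reported here. Ifnb1, Lck, Irgm2-201, Ifi47 and other neighbours of the members lie outside that rule and were chosen after their values were seen. The GMS and GKS types are background knowledge and were not checked on protein sequence here.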

Additional observations from a re-analysis of the deposited data

How the results depend on the processing

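All 8 members were detected at 0.5 and at 5 TPM, in the second quantification and without any replicate. The GMS over GKS log2 ratio had the opposite sign in the second quantification (-0.22), and its cause was not tested; leaving out a replicate gave 0.06 to 0.26. The family sum was 2294 in FPKM, a unit with another library scaling, and 3343 to 3654 TPM with a replicate left out. Neighbour pairs separated numbered 3 in counts without length scaling, which changes comparisons between genes by construction. They numbered 4 in the second quantification and 4 to 5 with a replicate left out. Members with unequal rates numbered 6, 8 and 5 without replicates 1, 2 and 3, beside 64.3%, 50.6% and 58.8% of all genes tested, and the cause was not tested. The Tgtp2 over Tgtp1 log2 ratio ran from 2.94 to 3.26 and the family median level from 4.73 to 4.96 with a replicate left out, and neither changed direction under any alternative run. Of 60 single gene levels, 18 moved by more than their SD in the second quantification and 0 under the other library scalings or with a replicate left out. In the TPM of the second quantification 5 of the 6 counts of members highest or lowest in a replicate moved by over 1.5 times. The main values came from normalised counts, so this alternative, chosen after seeing the data, changed the scaling along with the quantification. In the TPM of the gene quantification, replicates 1, 2 and 3 were highest for 4, 3 and 1 members and lowest for 0, 4 and 4. No paired analysis was possible because the libraries form a single group. Depth of 24450338 counts or more put every member far above the limit that a count of 0 allows, so the split of shared sequence between Tgtp1 and Tgtp2 and the 3 libraries of 1 group limit these values.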

Other observations

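In 4 of the 6 member promoters, those of Igtp, Irgm2, Tgtp1 and Tgtp2, the GAS letters began exactly 11 bases before the ISRE letters, on the same strand. Over 32851 promoters of all genes 5 had that spacing (0.01522%), and the fifth was Gm12185, another IRG locus, which overlaps Tgtp1. In GENCODE M21 the 5′ end of Gm12185, at 48992226, lies close to that of Tgtp1-201, at 48992258. Whether its match is separate from that of Tgtp1 was not tested. The spacing was chosen after the matches were seen, and the members share sequence, so it carries no test.

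Around Iigp1 and Gm4951 on chromosome 18, 6 genes within 50 kb of the members' span were detected, the 2 members included, and all 6 had their lowest TPM in replicate 3, where 34.9% of all detected genes had theirs. Gm5970 had 33.8, 46.8 and 16.3 TPM in replicates 1, 2 and 3, BC023105 had 16.6, 15.3 and 7.21 TPM, F830016B08Rik had 5.95, 8.32 and 3.35 TPM, and Gm4841 had 6.47, 3.10 and 2.89 TPM. On chromosome 11, 5 of 11 detected genes around Irgm1 and the Tgtp genes and 1 of 5 around Igtp were lowest there. In the second quantification the same 6 genes were lowest in replicate 3, where 34.5% of all detected genes were. A low replicate 3 was also seen outside chromosome 18 in the gene quantification. The median of the guanylate-binding list, on chromosomes 3 and 5, was 221, 163 and 99.1 TPM in replicates 1, 2 and 3. Mx1 on chromosome 16 had 1580, 1418 and 923 TPM. Of the guanylate-binding and Mx and GVIN lists, only Gbp2 (replicate 2), Gm4070 and Gm1966 (replicate 1) were lowest elsewhere. These comparisons were chosen after the values were seen and were not tested.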
